A study of Mus musculus with 12 samples.

Results

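The 40 genes described here encode proteins that tie integrins to actin filaments, bundle and crosslink those filaments, cap or sever them, or lie along them. They were taken from a list by gene symbol, chosen with earlier results of these data known. Of the 40, 39 had a probe set assigned to that gene alone, out of 22180 such genes on the array; Ilk, the integrin-linked kinase, shared each of its 3 probe sets with Taf10 or Rrp8 in the platform annotation and has no value of its own here. The cells were primary aortic smooth muscle cells of C57BL/6J mice, an inbred strain, grown in DMEM with 10% FCS and used at passage 3 to 4. One group of 6 arrays came from cells in 0.3 g/l (1.7 mM) glucose and the other group of 6 from cells in 4.5 g/l (25 mM) glucose. Time in the glucose medium is 14 days by the series' text and 1 week by the sample labels. The labels do not say whether replicates were separate cultures or animals, so the p-values may rest on technical spread alone. No osmotic control was analysed here, and no group at a glucose concentration between these was among the samples. A gene said to rise or fall is therefore higher or lower in 4.5 g/l than in 0.3 g/l. Whether 4.5 g/l raised its level or 0.3 g/l lowered it, or the reverse for a fall, was not tested. The comparison asks how glucose concentration alters expression in cultured vascular smooth muscle.

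Focal adhesions are the sites where a cell grips its matrix. Talin and kindlin bind the tails of integrins, vinculin strengthens the link from talin to actin under load, and a layer of LIM-domain proteins such as zyxin and paxillin gathers on top. LIM domains are zinc-binding folds that dock other proteins, and several LIM proteins collect on strained actin. In smooth muscle the same machinery anchors the contractile filaments at dense plaques. Many of its genes are known targets of the serum response factor SRF, which binds a promoter element called the CArG box and whose MRTF cofactors are held in the cytoplasm by unpolymerised actin.

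Most of these genes were higher in 4.5 g/l glucose than in the low-glucose group. With the linear model of limma and Benjamini-Hochberg adjustment over all genes, 31 of the 39 passed an adjusted p of 0.05 as higher in 4.5 g/l, against 7.01% of all genes tested. None of the 39 passed as lower, where 8.52% of all genes did, and none was lower at an unadjusted p under 0.05. At least 1.5-fold higher were 22 of the 39, against 1.92% of all genes. The listed genes were brighter than most: 34 of the 39 had a mean in the upper 25% of genes and 0 in the dimmest 25%. The shares over all genes include dim genes. The median log2 difference over the 39 was 0.62, beside -0.01 over all genes. The largest rise was in beta-tropomyosin, Tpm2, at 4.30-fold, followed by supervillin, Svil, at 3.30-fold. The 8 that did not pass were Tln2, Pxn, Lasp1, Pdlim1, Cfl1, Cfl2, Pfn2 and Tpm3, and most of them have a close relative in the list that rose.

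**Figure D1:**
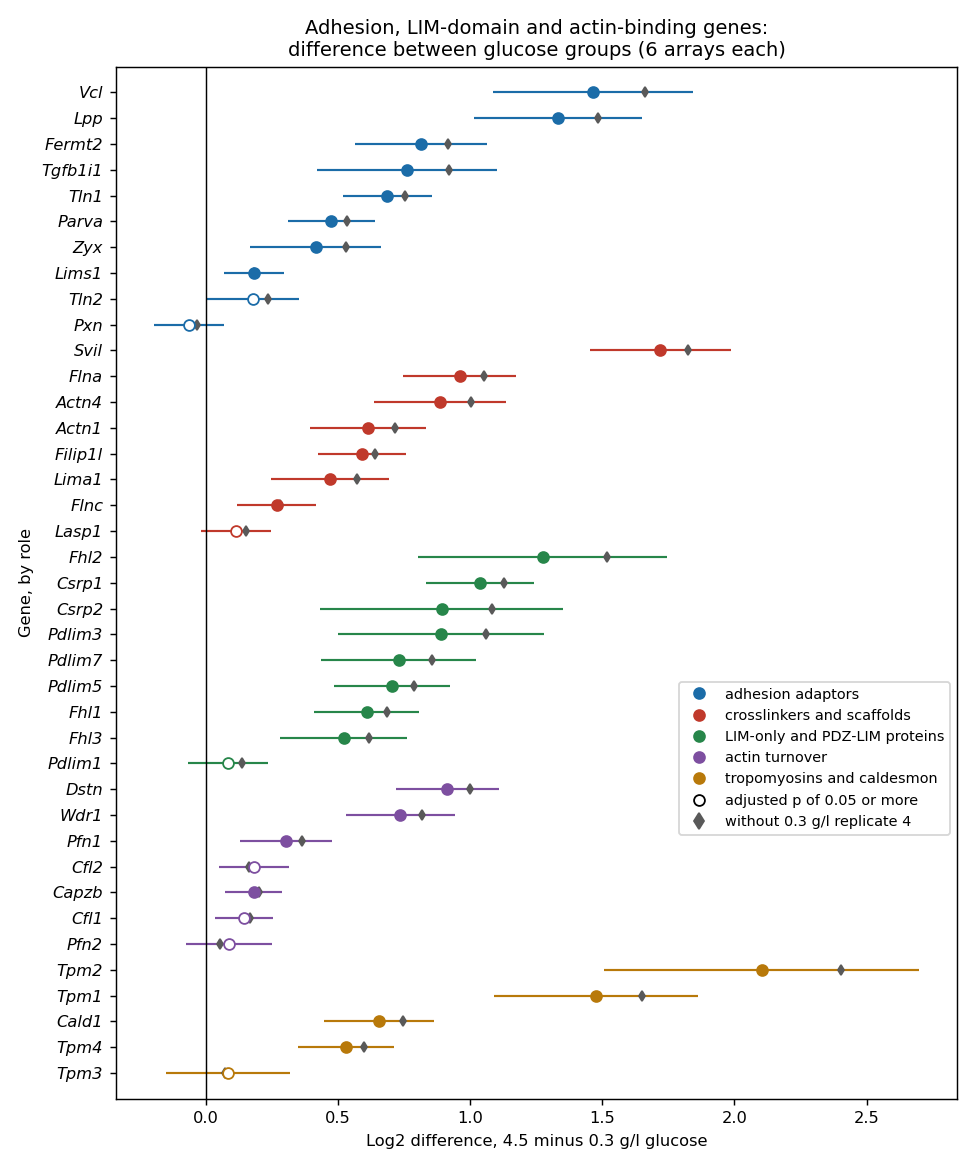
Log2 difference between 4.5 and 0.3 g/l glucose (horizontal axis) for each of the 39 measured genes, coloured by role, with bars for the 95% confidence interval of the limma fit over 12 arrays. Filled circles passed an adjusted p of 0.05; diamonds give the same difference without 0.3 g/l replicate 4. The differences run from -0.06 (Pxn) to 2.10 (Tpm2).

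One array stood apart, and its label could not be checked apart from the values measured here. Replicate 4 of the 0.3 g/l group was the highest of its group for 30 of the 31 genes that rose, and for 21 of these it lay between the other 5 arrays of 0.3 g/l and all 6 of 4.5 g/l. For 8 it lay inside the range of the 4.5 g/l arrays, and for Zyx above it. The same counts were not made over all genes. The array stood apart over all genes too: limma gave it a weight of 0.23 and the other arrays 0.86 to 1.525. A low weight marks an array whose values lie far from those of its group. Averaged over the 39 genes, the other 5 arrays of 0.3 g/l gave log2 values of 9.54 to 9.66, replicate 4 gave 10.15 and the 4.5 g/l arrays gave 10.27 to 10.44. Its presence widened the spread: the median SD within 0.3 g/l was 0.22 with it and 0.07 without it. Without that array 34 of the 39 genes passed as higher (10.3% of all genes) and no call was lost, while Tln2, Lasp1 and Cfl1 were gained. The median difference was then 0.72. That array was singled out as the highest of its group in these same genes, so larger differences without it follow from the choice. They are no independent support, and this limit holds for the later values without that array too. All 6 arrays of 4.5 g/l lay above all 6 of 0.3 g/l for 22 of the 31 genes that rose and for Cfl2, where 3.49% of all genes behaved so. Against the other 5 arrays of 0.3 g/l, 35 of the 39 genes were separated, including all 31 that rose (7.87% of all genes).

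**Figure D2:**
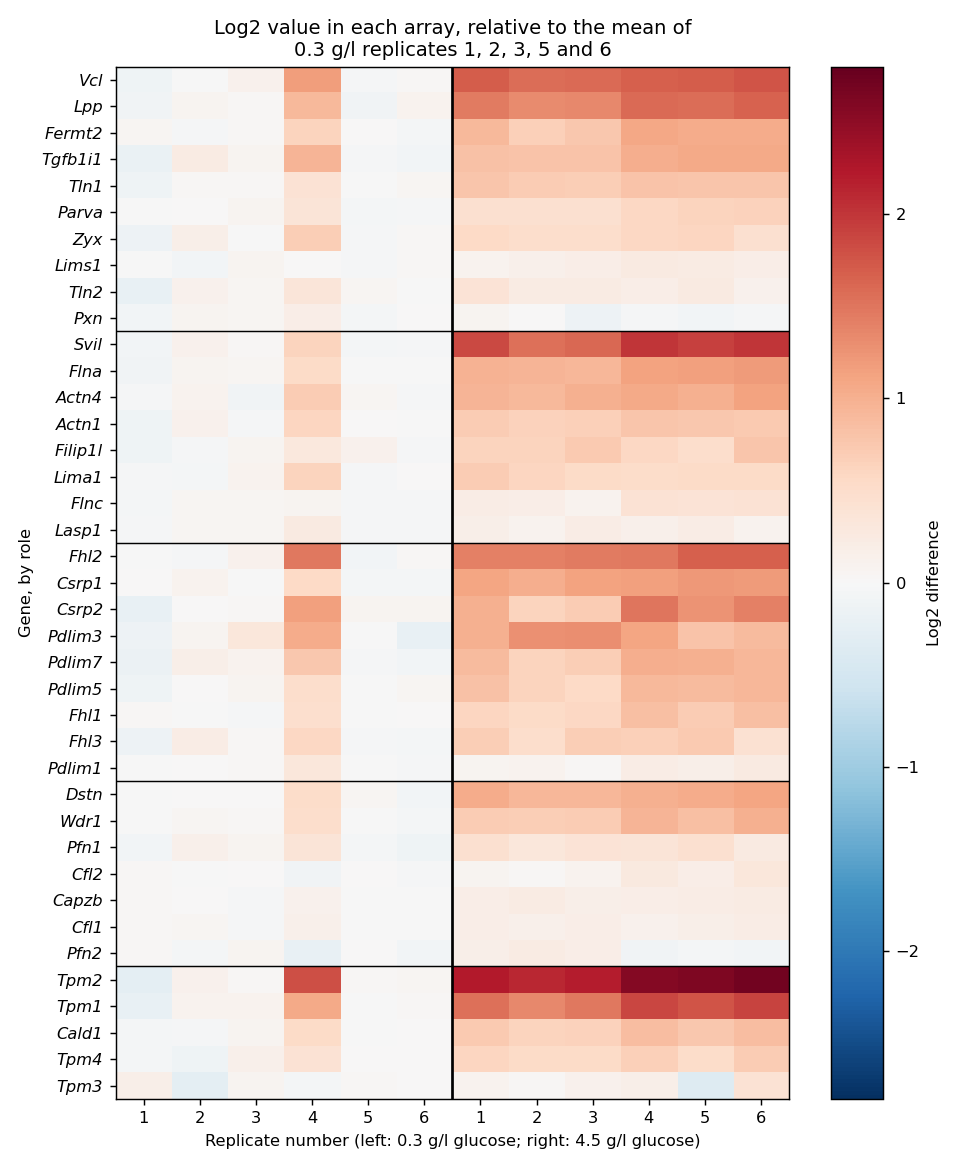
Heat map of the 39 genes (rows, by role) over the 12 arrays (columns, replicates 1 to 6 of 0.3 g/l on the left and of 4.5 g/l on the right). Colour is the log2 value minus the gene's mean in 0.3 g/l replicates 1, 2, 3, 5 and 6, so the intermediate level of 0.3 g/l replicate 4 shows as a single warm column in the left block.

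The labelled cell type was checked against marker genes. Of 7 smooth muscle markers 6 rose in 4.5 g/l and desmin, Des, did not pass (6.21 ± 0.27 and 6.32 ± 0.17, log2, mean ± SD, n = 6). Endothelial markers were also measurable, and all 11 lay above the dimmest 25% of genes. Cdh5 (limma adjusted p = 0.101) had a mean of 11.10 ± 0.39 in 0.3 g/l and 10.51 ± 0.51 in 4.5 g/l. Emcn had means of 11.71 and 11.28, where the brightest 25% of all genes had means of at least 7.67. Others were dimmer, such as Kdr with 5.52 and 5.41. Of 11 endothelial markers 1 fell (Emcn) and none rose. Averaged per array, these markers reached 7.73 to 7.78 at 0.3 g/l but only 7.23 in the array set apart above. At 4.5 g/l the first 3 replicates gave 7.72 to 7.84 and the last 3 gave 7.03 to 7.07. The smooth muscle markers, averaged so, gave 9.37 to 9.63 in the other 5 arrays of 0.3 g/l. They gave 10.63 in the array set apart and 11.09 to 11.30 in the 4.5 g/l arrays. None of 6 fibroblast, 6 macrophage or 7 striated muscle markers passed in either direction, where 7.01% of all genes rose and 8.52% fell. At such shares a list this short may well hold none that pass. Of these markers, 5 fibroblast, 4 macrophage and 7 striated muscle markers lay above the dimmest 25% of all genes, whose means were under 4.20. The fibroblast marker Pdgfra missed the threshold narrowly (difference 0.36, limma adjusted p = 0.0504). Another, Col1a1, had means of 12.05 in 0.3 g/l and 12.35 in 4.5 g/l. The macrophage marker Cd68 had means of 7.33 and 7.32, while Ptprc lay between 3.14 and 3.59. Fewer cells of a type and less RNA per cell cannot be told apart in such samples. Within replicates 1 to 3, where the endothelial means of both groups lay between 7.72 and 7.84, 28 of the 39 genes passed as higher (5.92% of all genes). This range was chosen with earlier results of these data known. Like means of these markers do not show a like mix of cells, and the part of cell mix in the rise was not tested.

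Of the genes, 6 carry a CArG box upstream of a transcription start, and their sequences show the element beside the response. The search covered 250 bases before to 50 bases after each start in RefSeq promoter windows (GRCm38.p6), on both strands; the pattern is CC, 6 bases of A or T, then GG, which reads as the same pattern on either strand. It was found in 6 of the 34 listed genes that had a window (17.6%) and in 1.81% of all 27025 genes, or in 7 of their 46 windows (15.2%) and 1.63% of all 32851 windows. Vcl, Lima1 and Filip1l carried the same 10 letters and Fhl2 a close variant. Positions count back from -1, the base before the start. The Vcl box lies at -227 to -218 (chr14:20929148-20929220 shown, plus strand), that of Lima1 at -47 to -38 (chr15:99820150-99820236, minus strand), that of Filip1l at -62 to -53 (chr16:57549140-57549229, plus strand) and the one nearest to an Fhl2 start at -31 to -22 (chr1:43163962-43164032, minus strand). Capitals mark the box, and up to 40 bases are shown on each side, 5′ to 3′ on the strand of the gene.
Vcl: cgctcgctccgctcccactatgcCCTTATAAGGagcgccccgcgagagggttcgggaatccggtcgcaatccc
Lima1: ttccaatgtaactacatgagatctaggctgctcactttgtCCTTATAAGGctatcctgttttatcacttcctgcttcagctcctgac
Filip1l: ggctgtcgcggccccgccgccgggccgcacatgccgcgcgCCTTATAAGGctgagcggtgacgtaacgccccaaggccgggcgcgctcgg
Fhl2: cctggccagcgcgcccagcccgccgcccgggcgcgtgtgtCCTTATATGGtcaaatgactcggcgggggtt

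The other boxes were CCAAAAAAGG at -96 to -87 of a second Fhl2 start, CCATAAAAGG at -204 to -195 of Fermt2 and CCTAAAATGG at -102 to -93 of Fhl1. All 6 genes rose in 4.5 g/l, with log2 differences from 0.47 (Lima1) to 1.47 (Vcl) and a median of 0.71. Of the 27 measured genes whose windows lack the pattern 21 rose, with log2 differences over the 27 from 0.08 to 2.10 and a median of 0.62. Whether the box has a part in the rise was not tested. The 6-base TEAD motif GGAATG, the site of the partners of YAP and TAZ, was in the windows of 9 of the 34 genes (26.5%) and of 16.6% of all genes. A match of letters is a description and not a measured site, and binding was not measured.

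Of the adaptors that link integrins to actin, 8 of 10 rose. Vinculin, Vcl, which reinforces the talin-actin link, had log2 values of 10.75 to 12.04 in 0.3 g/l (median 10.89) and 12.44 to 12.63 in 4.5 g/l (median 12.56). The groups did not overlap, and the difference was 1.47 ± 0.18 (SE), or 2.76-fold (limma adjusted p = 0.000193); without 0.3 g/l replicate 4 it was 1.66 ± 0.06. Lpp, a zyxin relative abundant in smooth muscle, ranged from 9.98 to 11.00 (median 10.14) in 0.3 g/l and from 11.41 to 11.73 (median 11.59) in 4.5 g/l, again without overlap. Its rise was 2.52-fold (limma adjusted p = 0.000122). A second Lpp probe set had a mean of only 1.59 in 4.5 g/l, among the dimmest 25% of genes, and differed by 0.12. It was not used; with the mean of both probe sets the Lpp difference was 0.73 (limma adjusted p = 0.000405) in place of 1.33.

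Talin 1, Tln1, the main integrin activator, lay at 9.99 to 10.51 (median 10.14) in 0.3 g/l and at 10.80 to 10.90 (median 10.88) in 4.5 g/l. Kindlin-2, Fermt2, which activates integrins beside talin, lay at 9.22 to 9.89 (median 9.29) and at 9.94 to 10.35 (median 10.24). Both were higher in every 4.5 g/l array than in any 0.3 g/l array, with rises of 1.61-fold and 1.76-fold (limma adjusted p = 0.000131 and 0.000568). Parvin alpha, Parva, a partner of the integrin-linked kinase, rose 1.39-fold without overlap. Lims1, or PINCH-1, the LIM-only partner of that kinase, rose by the small log2 difference of 0.18 ± 0.05 (limma adjusted p = 0.0316). In that gene 0.3 g/l replicate 4 (7.13) lay among the other arrays of its group (7.05 to 7.20), but the call was lost within replicates 1 to 3 (adjusted p = 0.278), after median centring (0.116) and on leaving out any one of 0.3 g/l replicates 1, 2, 5 and 6 or 4.5 g/l replicates 3 to 6 (0.0536 to 0.0739).

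Hic-5, Tgfb1i1, a paxillin relative induced by TGF-beta, lay at 10.09 to 11.24 (median 10.30) in 0.3 g/l and at 11.07 to 11.33 (median 11.19) in 4.5 g/l. The groups overlapped through 0.3 g/l replicate 4 alone, and the rise was 1.70-fold (limma adjusted p = 0.00542). Zyxin, Zyx, which moves onto strained stress fibres, ranged from 10.01 to 10.85 (median 10.16) and from 10.61 to 10.76 (median 10.68). It rose 1.33-fold (limma adjusted p = 0.0253), and replicate 4 of 0.3 g/l was the highest of all 12 arrays. Its call was lost on leaving out any one of 0.3 g/l replicates 1, 3, 5 and 6 or 4.5 g/l replicates 4 and 5. Neither talin 2, Tln2 (8.25 to 8.79 and 8.57 to 8.84; difference 0.18 ± 0.08, limma adjusted p = 0.176), nor paxillin, Pxn (7.42 to 7.68 and 7.35 to 7.57; -0.06 ± 0.06, 0.576), passed. Tln2 did so without 0.3 g/l replicate 4 (0.23, limma adjusted p = 0.0229).

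Among crosslinkers and scaffolds 7 of 8 rose. Supervillin, Svil, which anchors actin and myosin II to the membrane, lay at 7.19 to 7.90 (median 7.27) in 0.3 g/l and at 8.82 to 9.28 (median 9.15) in 4.5 g/l. The gap between the groups was wide even with replicate 4 of 0.3 g/l, the highest of its group, included. The difference was 1.72 ± 0.12 (3.30-fold, limma adjusted p = 8.58e-06), and it was the one gene of the list to pass within replicates 4 to 6 with that array kept. Filamin A, Flna, the actin crosslinker that binds integrin tails, lay at 11.12 to 11.76 (median 11.24) and 12.14 to 12.40 (median 12.28), a rise of 1.95-fold (limma adjusted p = 6.89e-05). The striated muscle filamin Flnc differed by 0.27 ± 0.07 (limma adjusted p = 0.0174) and did not pass within replicates 1 to 3 (0.14, adjusted p = 0.290).

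The alpha-actinins, which bundle stress fibres, both rose without overlap. Actn4 lay at 11.13 to 11.94 (median 11.24) in 0.3 g/l and 12.13 to 12.35 (median 12.22) in 4.5 g/l, a rise of 1.85-fold. Actn1 lay at 12.09 to 12.81 (median 12.21) and 12.86 to 12.98 (median 12.93), a rise of 1.53-fold (limma adjusted p = 0.000336 and 0.00133). Filip1l, a relative of the filamin-interacting protein FILIP1, rose 1.51-fold and Lima1, or EPLIN, which stabilises filaments, 1.38-fold (limma adjusted p = 0.000333 and 0.00742). The LIM and SH3 protein Lasp1 had 6.57 to 6.86 in 0.3 g/l and 6.71 to 6.83 in 4.5 g/l and did not pass (0.11 ± 0.06, limma adjusted p = 0.267), except without 0.3 g/l replicate 4 (0.15, 0.0370) and with array weights.

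LIM-only and PDZ-LIM genes rose in 8 of 9. Fhl2, a four-and-a-half-LIM cofactor known as an SRF target, ranged from 6.94 to 8.50 (median 7.03) in 0.3 g/l and from 8.43 to 8.71 (median 8.49) in 4.5 g/l. The whole overlap was due to 0.3 g/l replicate 4, since the other 5 arrays ended at 7.14. The rise was 2.42-fold (limma adjusted p = 0.00168) and 2.87-fold without that array. Its relatives Fhl1 and Fhl3 rose 1.53-fold and 1.44-fold (limma adjusted p = 0.000820 and 0.00621). The cysteine-rich LIM proteins, which sit on actin bundles, rose as well: Csrp1 from 11.22 to 11.83 (median 11.28) up to 12.29 to 12.48 (median 12.41), 2.05-fold and without overlap (limma adjusted p = 3.00e-05), and Csrp2 from 8.38 to 9.72 (median 8.64) up to 9.20 to 10.09 (median 9.71), 1.86-fold with overlap (0.0118). Csrp2 also had the widest split inside 4.5 g/l, with replicates 4 to 6 on average 0.61 above replicates 1 to 3.

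PDZ-LIM proteins carry kinases and alpha-actinin to actin bundles. Pdlim3, also called ALP, rose 1.85-fold, Pdlim7, or enigma, 1.66-fold and Pdlim5, or ENH, 1.63-fold (limma adjusted p = 0.00480, 0.00289 and 0.000622). Of these only Pdlim5 was free of overlap, at 10.09 to 10.71 (median 10.24) in 0.3 g/l and 10.77 to 11.13 (median 11.05) in 4.5 g/l. Pdlim1 did not pass: it lay at 11.89 to 12.23 (median 11.92) and 11.95 to 12.16 (median 12.05), a difference of 0.08 ± 0.07 (95% interval -0.07 to 0.24, limma adjusted p = 0.503).

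Filament turnover genes were the most divided, with 4 of 7 higher. Destrin, Dstn, which severs and depolymerises actin, lay at 11.27 to 11.86 (median 11.35) in 0.3 g/l and 12.26 to 12.44 (median 12.35) in 4.5 g/l. It rose 1.88-fold without overlap (limma adjusted p = 4.99e-05). Wdr1, or AIP1, which speeds severing by cofilin, rose 1.67-fold, also without overlap, from 10.65 to 11.18 (median 10.71) up to 11.38 to 11.69 (median 11.48). The cofilins themselves moved little. Cfl1 lay at 11.25 to 11.43 (median 11.29) and 11.41 to 11.49 (median 11.46), a difference of 0.14 ± 0.05 (limma adjusted p = 0.0771). Cfl2, the muscle form, lay at 11.69 to 11.82 (median 11.79) and 11.83 to 12.11 (median 11.93), 0.18 ± 0.06 (0.0605).

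These 2 genes sat close to the threshold: both passed with a mean-variance trend, without the dimmest 25% of genes, after cyclic loess and with array weights. Cfl2 is also a gene in which 0.3 g/l replicate 4, at 11.69, was the lowest of its group. The monomer-binding profilin Pfn1 rose 1.24-fold (limma adjusted p = 0.0203) and the capping subunit Capzb 1.13-fold (0.0245). Both calls were near the threshold too, and Capzb was lost after median centring (0.0821), within replicates 1 to 3 (0.116) and on leaving out any one of 0.3 g/l replicates 3, 5 and 6 or 4.5 g/l replicate 6; that of Pfn1 was lost without 0.3 g/l replicate 1, 5 or 6. The neuronal-enriched Pfn2 did not pass (8.20 to 8.49 and 8.31 to 8.62; 0.09 ± 0.08, limma adjusted p = 0.528).

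Tropomyosins wind along actin filaments and set which other proteins reach them, and they held the most unequal family. Tpm2 lay at 8.13 to 10.20 (median 8.46) in 0.3 g/l and at 10.50 to 11.11 (median 10.79) in 4.5 g/l. The groups did not overlap, although 0.3 g/l replicate 4 (10.20) lay far above the other 5 of its group, which ended at 8.53. The difference was 2.10 ± 0.28, or 4.30-fold (limma adjusted p = 0.000350), and 2.40 ± 0.12, or 5.29-fold, without that array. Tpm1, alpha-tropomyosin, lay at 8.31 to 9.58 (median 8.59) and 9.87 to 10.43 (median 10.19) and rose 2.78-fold (limma adjusted p = 0.000207). The cytoskeletal Tpm4 rose 1.44-fold (limma adjusted p = 0.00113), with a difference of 0.53 in the probe set used and of 0.72 in a second one. Tpm3 did not pass (9.42 to 9.87 in 0.3 g/l and 9.35 to 10.10 in 4.5 g/l, difference 0.08 ± 0.11, limma adjusted p = 0.698). Its second, dimmer probe set differed by 0.17. Both probe sets are assigned to Tpm3 by the platform annotation alone, and their positions on the genome were not checked. The pairs with Tpm3 below rest on the first of them. Caldesmon, Cald1, which holds tropomyosin-coated filaments in check, lay at 11.08 to 11.67 (median 11.13) and 11.76 to 11.99 (median 11.87), a rise of 1.58-fold (limma adjusted p = 0.000675).

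**Figure D3:**
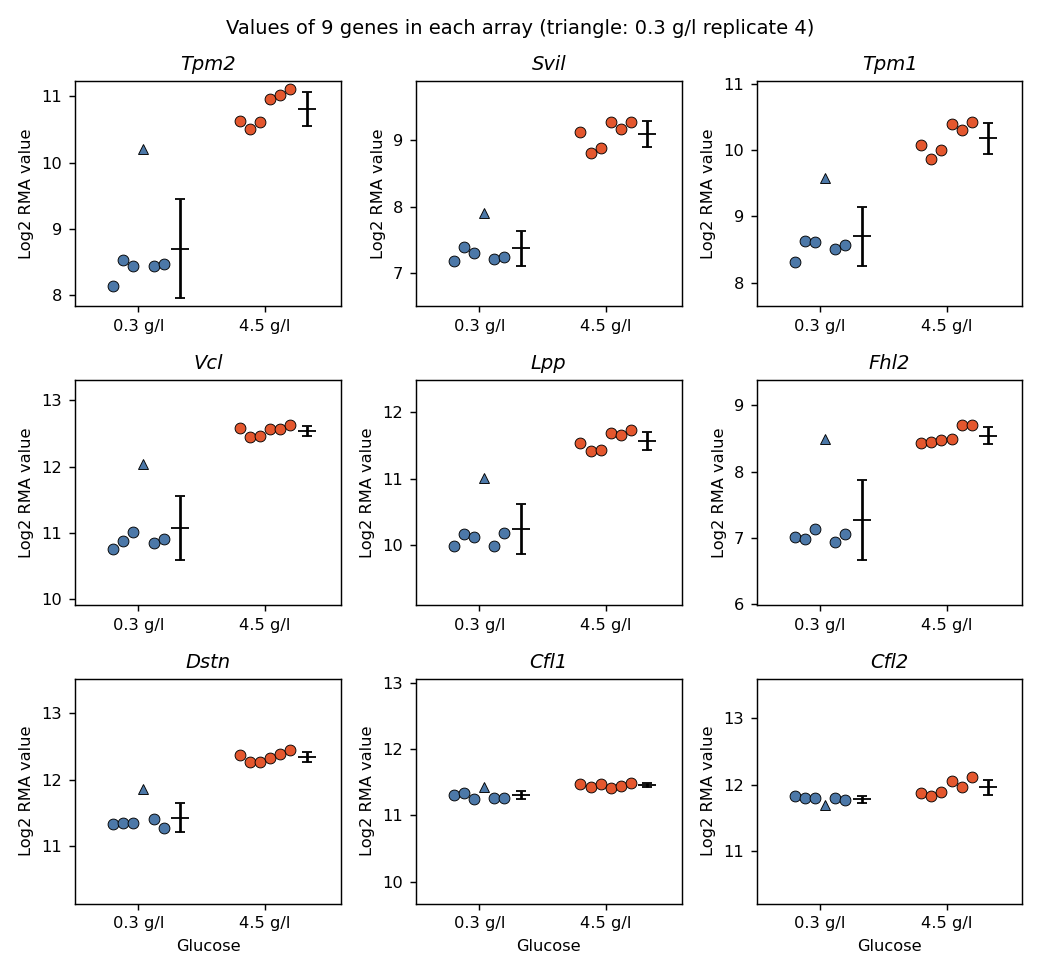
Log2 RMA values of 9 genes in each array of 0.3 g/l (blue) and 4.5 g/l (orange-red) glucose, with the mean and SD of 6 arrays in black; every panel spans the same height of 3.4 log2 units but has its own zero point. Triangles mark 0.3 g/l replicate 4, which lies above the rest of its group in Tpm2, Svil, Tpm1, Vcl, Lpp, Fhl2, Dstn and Cfl1 and below it in Cfl2.

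Relatives within a family did not shift equally, as measured by 1 probe set per gene. Whether different probe sets register a change equally was not tested. For 25 pairs the difference between the log2 values of the 2 genes was taken in each array and compared between groups with a two-sided exact permutation test over 924 assignments, whose smallest possible p was 0.00216; p-values were adjusted over the 25 pairs. In 18 pairs the differences were unequal (adjusted p of at most 0.0210, n = 6 per group, exact test). The pairs were chosen after seeing the values and many share a gene, so the 18 are not independent results. No such count was made over pairs of unrelated genes. Dstn exceeded Cfl1 by 0.77 (95% interval 0.61 to 0.93) and Cfl2 by 0.73 (0.49 to 0.98). Tln1 exceeded Tln2 by 0.51 (0.39 to 0.63), Flna exceeded Flnc by 0.69 (0.52 to 0.87) and Lpp exceeded Zyx by 0.92 (0.76 to 1.07). In each of these 5 pairs no array of one group overlapped those of the other. The gap of Lpp and Zyx depends on the probe set used. With the mean of its probe sets Lpp differed by 0.73, beside 0.42 for Zyx.

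Hic-5, Tgfb1i1, exceeded its relative Pxn by 0.83 (0.49 to 1.16). Tpm2 exceeded Tpm1 by 0.63 (0.34 to 0.91) and Tpm4 by 1.57 (1.00 to 2.15), and Tpm4 in turn exceeded Tpm3 by 0.44 (0.18 to 0.71). Fhl2 exceeded Fhl1 by 0.67 and Fhl3 by 0.75, while Fhl1 and Fhl3 were not told apart (0.09, interval -0.14 to 0.31). Actn1 rose less than Actn4, by -0.27 (-0.35 to -0.19). Pdlim1 stood below Pdlim3, Pdlim5 and Pdlim7, whereas these 3 were not told apart from one another (the intervals lay between -0.21 and 0.58). The same held for Csrp1 against Csrp2 (0.15, -0.24 to 0.53), Cfl2 against Cfl1 (0.04, -0.10 to 0.18) and Pfn1 against Pfn2 (0.22, -0.05 to 0.48), although the last pair passed without 0.3 g/l replicate 4 (0.31, exact permutation adjusted p = 0.0142). Intervals use the t distribution.

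**Figure D4:**
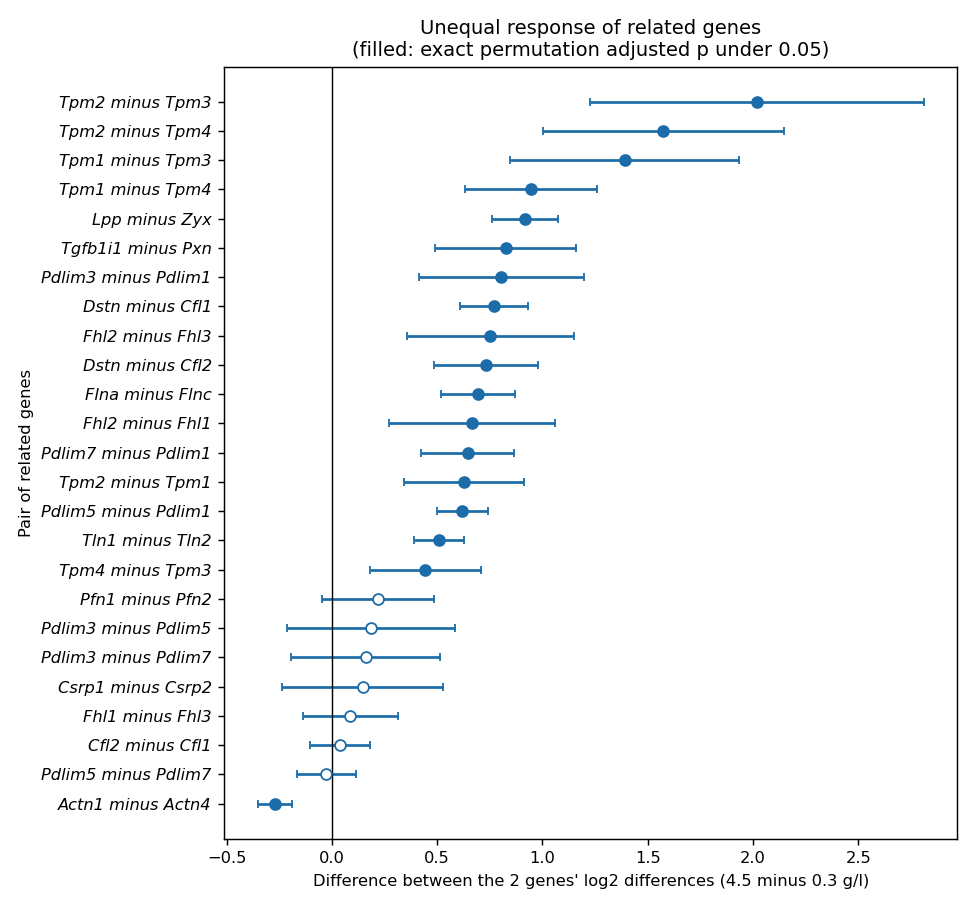
Gap between the log2 differences (4.5 minus 0.3 g/l) of 2 related genes for each of 25 pairs, with 95% confidence intervals; filled circles passed an exact permutation test adjusted over the pairs. Gaps run from -0.27 (Actn1 minus Actn4) to 2.02 (Tpm2 minus Tpm3).

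The 4.5 g/l arrays also fell apart by replicate number. In 21 of the 39 genes replicates 4 to 6 all lay above replicates 1 to 3 (12.5% of all genes), in Pfn2 they all lay below (15.3% of all genes), and the median gap over the 39 was 0.10; the mean of endothelial markers was lower in these same 3 arrays, and its part in the gap was not tested. Within replicates 4 to 6, with 0.3 g/l replicate 4 left out, 29 of the 39 genes passed as higher (6.55% of all genes). In both ranges, taken so, 28 of the 39 genes passed as higher, a count that was not made over all genes.

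The further genes of the pathway were counted against the 7.01% of all genes that rose and the 8.52% that fell; in each of the 3 larger lists the share that fell was below 8.52%, so the falls named here stand for single genes only. Of 26 further adhesion signalling and scaffold genes 11 rose and 2 fell, with a median difference of 0.18. Nexilin, Nexn, an actin-filament protein of adhesions and Z-discs, rose 2.73-fold, and the talin-binding Kank1 and Kank2 rose 1.40-fold and 1.37-fold (limma adjusted p = 0.000672, 0.00217 and 0.00141). Git1, an adaptor for the PIX exchange factors, fell by 0.36 and tensin 2, Tns2, fell by 0.32 in log2 value (0.00913 and 0.0136). Of 18 other LIM-domain genes 8 rose and 1 fell (median 0.18). Ldb3, a PDZ-LIM protein of the Z-disc, rose 2.17-fold, and the actin-oxidising Mical2 and Mical1 rose 1.57-fold and 1.38-fold (limma adjusted p = 0.00270, 0.00196 and 0.000326). Limk1, the kinase that inactivates cofilin, fell by 0.33 ± 0.07 in log2 value (adjusted p = 0.00731).

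Among 37 further actin assembly and turnover genes 14 rose and 2 fell (median 0.14). Leiomodin 1, Lmod1, a nucleator of smooth muscle filaments, rose 3.41-fold, gelsolin, Gsn, 1.77-fold and the cyclase-associated protein Cap2 1.75-fold (limma adjusted p = 0.000130, 0.000326 and 0.000260). Ssh3, a phosphatase of the slingshot family that reactivates cofilin, fell by 0.50 ± 0.12 in log2 value (0.00983), and Coro1b, an inhibitor of Arp2/3 branching, fell by 0.17 (limma adjusted p = 0.0497), a call that most alternatives lost. Srf itself rose 1.63-fold (limma adjusted p = 0.00729). It had 8.10 to 9.17 (median 8.17) in 0.3 g/l and 8.84 to 9.13 (median 9.09) in 4.5 g/l. Replicate 4 of 0.3 g/l had the highest Srf value of all 12 arrays, so the groups overlapped. Mrtfb rose by 0.21 ± 0.07 (limma adjusted p = 0.0476), a call lost on leaving out any array but 0.3 g/l replicate 4, and also lost after median centring (0.0779) and with the mean of its probe sets (0.359). Mrtfa (0.44 ± 0.16) and Myocd (0.20 ± 0.09) missed the threshold over all 12 arrays (adjusted p = 0.0840 and 0.141) and passed without 0.3 g/l replicate 4 (0.00229 and 0.00274).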

How the data were processed

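RNA of 12 samples, 6 per glucose concentration, was measured on an Affymetrix mouse gene array. The authors deposited log2 values per probe set; per the submitters' processing notes they come from Affymetrix Expression Console and RMA. Versions and settings are not given in the sources used here, and scanner files were not analysed here. Values ran from 0.60 to 13.90, and array medians from 4.92 to 5.05. Of 41345 probe sets, 23521 had 1 gene symbol in the platform annotation, 1814 had several and 16010 were unnamed here; each of 22180 genes was represented by its probe set with the highest mean.

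All genes were fitted in R 4.3.3 with limma 3.58.1 (lmFit, eBayes, two-sided, no block), adjusted over all genes at 0.05; the fit was tested on simulated data. Error terms are SE of a log2 difference (median 0.10 for the listed genes) or SD. The number of arrays limits precision. Same-numbered arrays did not deviate together (correlations of deviations from -0.05 to 0.17), so numbers were not taken as pairs. The genes, lists and replicate ranges were chosen with earlier results of these data known; the comparison of related genes, with its pairs, was added after seeing the values. All 40 listed genes were to be named, with the 3 changed genes of smallest p in each direction of each further list, and Srf, Myocd, Mrtfa and Mrtfb. Promoter windows are from RefSeq (GRCm38.p6); 34 of the 40 genes matched. Figures were drawn with matplotlib 3.10.9.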

Additional observations from a re-analysis of the deposited data

Results flagged for a closer look

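In each glucose group of 6 arrays, each gene's highest and lowest value was compared with its nearest neighbour by Dixon's criterion, which chance alone exceeds in about 1 group in 20. Of 78 groups (39 genes, 2 groups each) 26 held such a value, a count that was not made over all genes. Every one was the high value of 0.3 g/l replicate 4. Its log2 values were 10.51 in Tln1, 12.04 in Vcl, 9.895 in Fermt2, 10.85 in Zyx, 11.24 in Tgfb1i1, 11.04 in Parva and 11.00 in Lpp among the adaptors. Among crosslinkers and scaffolds they were 12.81 in Actn1, 11.94 in Actn4, 11.76 in Flna, 7.90 in Svil, 6.86 in Lasp1 and 9.01 in Lima1. LIM-only and PDZ-LIM genes gave 10.57 in Fhl1, 8.50 in Fhl2, 11.83 in Csrp1, 9.72 in Csrp2, 12.23 in Pdlim1, 10.71 in Pdlim5 and 8.20 in Pdlim7. Turnover and filament genes gave 11.86 in Dstn, 11.18 in Wdr1, 12.01 in Capzb, 9.58 in Tpm1, 10.20 in Tpm2 and 11.67 in Cald1. Over the 31 genes that rose, this array lay at a median of 68.0% of the distance from the mean of the other 5 arrays of its group to the mean of 4.5 g/l, from 4.83% in Lims1 to 131% in Zyx. Pfn2 and Cfl2, at 8.20 and 11.69, were the lowest of their group in the same array.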

How the results depend on the processing

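In 24 alternatives the count of listed genes that rose lay between 27 and 35, except within replicates 4 to 6, where 1 passed; none fell in any of them. Leaving out each array in turn gave 27 to 34 risen genes, a median difference of 0.60 to 0.72, 1202 to 2288 for all genes higher and 1303 to 3007 for all genes lower, 10 to 14 higher and 2 to 4 lower signalling genes, 5 to 8 higher and 1 to 2 lower LIM-domain genes, 13 to 15 higher and 1 to 3 lower actin assembly genes, 1 to 4 higher SRF genes and 18 to 19 differing pairs. The upper ends of the counts over all genes belong to 0.3 g/l replicate 4. Of the 31 genes 26 passed in all 22 alternatives other than the 2 on replicates 4 to 6. With the replicate number as a block 29 passed, without Lims1 (limma adjusted p = 0.0818) and Capzb (0.0850); Mrtfb (0.0948) and Coro1b (0.132) did not pass either, and the further lists gave 2 lower LIM-domain, 1 lower actin assembly and 1 higher SRF gene. Within replicates 4 to 6, 21 genes of all rose, 9 fell, and 0 of each further list passed in either direction. Array weights gave 2347 for all genes higher and 3072 for all genes lower, with 4 lower signalling, 3 lower LIM-domain and 4 lower actin assembly genes and 4 higher SRF genes. Lower LIM-domain genes numbered 2 without the dimmest genes and with the range of numbers as a covariate, and 0 within replicates 1 to 3. Lower actin assembly genes numbered 1 after quantile normalization, cyclic loess, averaging of probe sets and with that covariate; higher SRF genes numbered 1 after median centring and averaging. Pfn2 turned to -0.038 in replicates 4 to 6 without 0.3 g/l replicate 4. Cfl2 against Cfl1 turned to -0.0033 without 0.3 g/l replicate 4, and Pdlim5 against Pdlim7 to 0.0086 without 0.3 g/l replicate 6; neither pair had passed, and over the arrays left out in turn they ranged from -0.0033 to 0.059 and from -0.069 to 0.0086. The causes were not tested.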
